A study of Mus musculus with 42 samples.

Results

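Subcutaneous Pan02 tumours taken 16 h after one oral dose of BXCL701 were compared with tumours of vehicle-treated mice, 3 tumours against 3, out of 42 tumours sequenced. The 6 tumours were chosen by their labelled group alone. Pan02, a mouse pancreatic adenocarcinoma line, was injected into the right flank of wild-type mice, for which the protocol names C57BL/6J or Balb/c without saying which these animals were, and each tumour carries its own animal number. Neither sex nor age is given for them. The treated mice received 20 ug of BXCL701 by gavage as a single dose on day 1 and were sampled at 16 h, and the vehicle mice were sampled on day 1 at 0 h, with PBS as the vehicle. BXCL701 (talabostat) blocks a family of serine proteases, DPP8 and DPP9 inside the cell and DPP4 and FAP on its surface, and the study asked how such inhibition alters the immune content of the tumour over time. No vehicle tumour of 16 h was among the samples used here, so in this comparison the drug and the harvest hour cannot be told apart. Other BXCL701-treated tumours, from 1 h and 8 h after the same first dose, were used to describe the hours. The 0, 8 and 16 h harvests of days 7 and 14, under daily dosing, were used as well. In these treated tumours the harvest hour and the time since dosing cannot be told apart either. The vehicle tumours of days 7 and 14, harvested at 0 h, served to set the day 1 difference against the 16 h differences of those days.

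Immediate early genes such as Egr1 and Fos encode transcription factors that are transcribed within minutes of growth factor, stress or calcium signals and usually return to low levels soon after. The circadian clock is a feedback loop in which BMAL1 (Arntl) and CLOCK bind E-box elements and drive their own repressors (Per, Cry and Nr1d1), so that these transcripts rise and fall with the hour in most tissues, tumours included. Neutrophils are drawn into tissue by CXCR2 ligands such as CXCL1 and CXCL2, and their RNA is recognised by S100a8, S100a9 and the receptor for granulocyte colony-stimulating factor, Csf3r.

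The summed deposited values of the 6 tumours ran from 20863468 to 24190898. Epithelial markers of the tumour line were present in all 6: Krt8, a simple-epithelial keratin, lay between 14.07 and 15.12 on the log2(value + 1) scale used throughout, and Msln (mesothelin) between 10.69 and 11.72. The tumours differed in neighbouring tissue, between the groups and within them. All 14 hair follicle keratin, 14 skeletal muscle and 7 red blood cell genes had lower means at 16 h, with median log2 differences of -2.79, -2.48 and -1.38, none with an unadjusted p under 0.05; with 1 tumour left out these medians ran from -5.35 to -1.21, from -3.46 to -1.52 and from -1.89 to -0.71. Hair follicle keratins were high in vehicle replicates 1 and 3 and in 16 h replicate 3 (mean levels of 7.60, 8.99 and 7.73 over 14 genes) and near the floor in vehicle replicate 2 and 16 h replicates 1 and 2 (0.27, 0.40 and 0.56); Krt81 and Krt83 were listed at 0 in those last 3 tumours. The summed value of the 14 skeletal muscle genes ranged from 13923 to 71769 in the vehicle tumours and from 1337.8 to 20262.9 at 16 h, and that of the 7 red blood cell genes from 1432.7 to 9482.9 and from 1095.2 to 1627.7. Vehicle replicate 2 held the highest muscle and red blood cell sums, correlated least with the other vehicle tumours (Pearson r of 0.933 and 0.929 across genes), and had the lowest index of transcript length (-0.37, against -0.02 and 0.03 in the other vehicle tumours), a measure of whether long transcripts are over- or under-represented. The 16 h replicate 3 correlated with vehicle replicates 1 and 3 at 0.977 and 0.978 and with 16 h replicates 1 and 2 at 0.944 and 0.946. The plot of list levels by tumour shows these patterns.

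**Figure D1:**
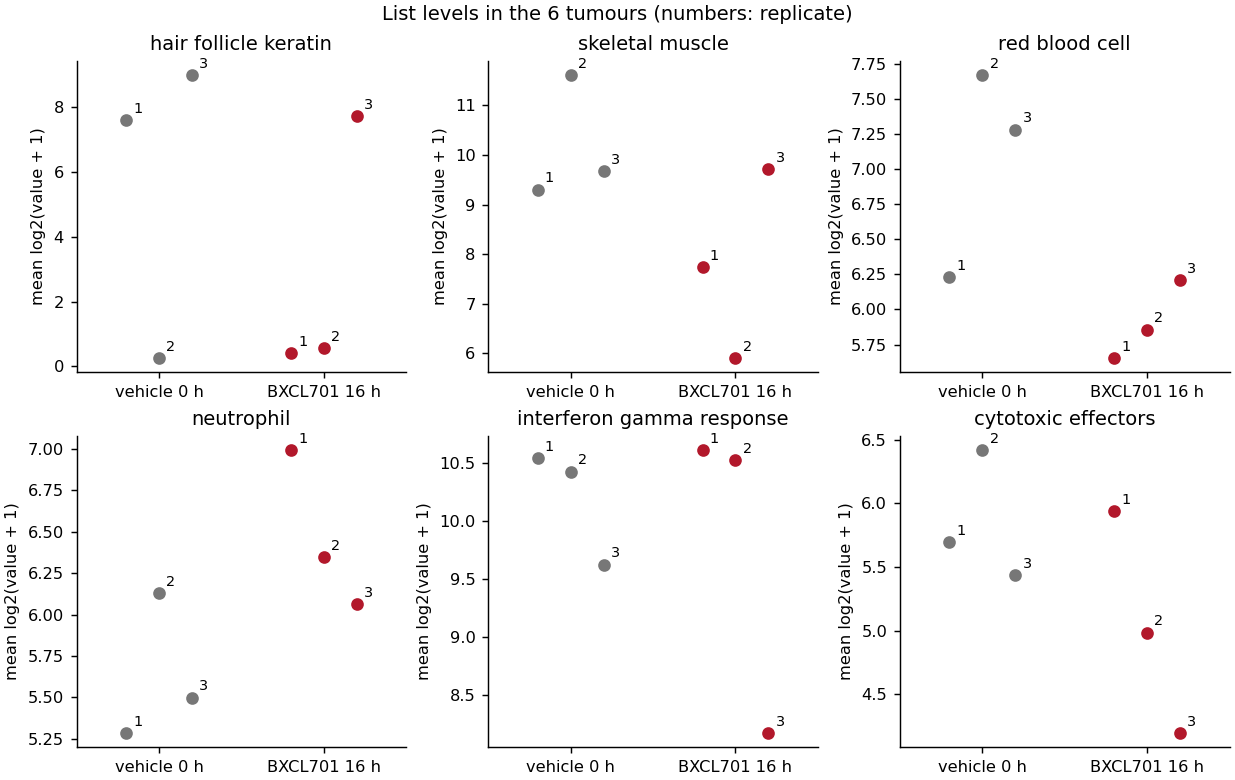
Mean log2(value + 1) level (vertical axis) of 6 gene lists in the 3 vehicle tumours (grey) and the 3 tumours at 16 h after BXCL701 (red), with the replicate number beside each point. Hair follicle keratins are near 0 in vehicle replicate 2 and in 16 h replicates 1 and 2, and the interferon gamma list is lowest in 16 h replicate 3, at 8.17.

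At 16 h after the first dose 2 genes were higher than in vehicle and passed the test, both immediate early transcription factors, and no gene was lower. They were Egr1 (Ensembl ENSMUSG00000038418, chr18:34859823-34864984 on GRCm38, plus strand) and Fos (ENSMUSG00000021250, chr12:85473890-85477273, plus strand), which make up 0.012% of the 16613 genes tested (0% for lower genes). Egr1 stood at 11.06, 10.47 and 11.01 in the vehicle tumours and at 13.26, 12.77 and 12.19 at 16 h. Every 16 h tumour lay above every vehicle tumour. Egr1 rose by 1.89 ± 0.30 on the log2 scale (standard error, 3 against 3 tumours), or 3.71-fold, with a limma adjusted p of 0.0088. Fos, the partner of JUN in AP-1, stood at 8.70, 7.90 and 8.83 in vehicle and at 11.40, 10.96 and 9.61 at 16 h. The groups did not overlap, although 16 h replicate 3 was the lowest of its group for both genes. Fos rose by 2.18 ± 0.38, or 4.54-fold, with a limma adjusted p of 0.0215. Both calls depended on single libraries: without vehicle replicate 2 the differences were 1.70 for Egr1 (adjusted p = 0.27) and 1.89 for Fos (adjusted p = 0.46), without 16 h replicate 1 they were 1.63 (adjusted p = 0.362) and 1.81 (adjusted p = 0.574), and without 16 h replicate 3, which holds hair follicle keratins, they were 2.17 (adjusted p = 0.00159) and 2.70 (adjusted p = 0.000861). Egr1 also failed without 16 h replicate 2 (1.88, adjusted p = 0.0972), as did Fos without that tumour (2.03, adjusted p = 0.2) and without vehicle replicate 1 (2.30, adjusted p = 0.0726). With mean levels of skin, muscle and fat genes as covariates Egr1 gave 1.70 (adjusted p = 0.0046) and Fos 2.09 (adjusted p = 0.082). With the 6 tumours fitted alone neither passed (adjusted p = 0.948 for both).

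The immediate early list, counted here with Egr1 and Fos included, lay mostly on the same side. Of 16 genes in it, 13 had higher means at 16 h, 11 of them with an unadjusted p under 0.05, where 3.2% of all genes were higher and 0.807% lower by that rule. In 10 of the 16 the groups did not overlap with 16 h higher, against 6.31% of all genes (3.43% did not overlap with 16 h lower), and none was lower without overlap. Without vehicle replicate 2 the count at an unadjusted p under 0.05 was 9, and without 16 h replicates 1 or 3 it was 8 or 11. The median difference was 0.98, beside 0.02 over all genes. Btg2, an antiproliferative immediate early gene, was 9.72, 9.47 and 9.62 in vehicle and 11.55, 10.68 and 10.35 at 16 h, a difference of 1.26 ± 0.25 that missed the threshold (adjusted p = 0.082). Nr4a1, an orphan nuclear receptor, was 9.21, 9.54 and 9.09 in vehicle and 11.92, 11.05 and 9.59 at 16 h (1.57 ± 0.46, adjusted p = 0.956). Its lowest 16 h tumour lay only just above the highest vehicle tumour. Zfp36, whose protein destabilises cytokine mRNA, was 9.81, 9.68 and 9.85 in vehicle and 11.13, 10.64 and 10.20 at 16 h (0.87 ± 0.23, adjusted p = 0.956). Dusp1, a phosphatase of MAP kinases, was 9.57, 9.15 and 9.75 in vehicle and 11.23, 10.56 and 10.16 at 16 h (1.159 ± 0.32, adjusted p = 0.956). In all of these genes the order of the 16 h tumours was the same, with replicate 1 highest and replicate 3 lowest. The mean level of the list was 9.56, 9.48 and 9.55 in the vehicle tumours and 10.83, 10.38 and 9.99 at 16 h.

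**Figure D2:**
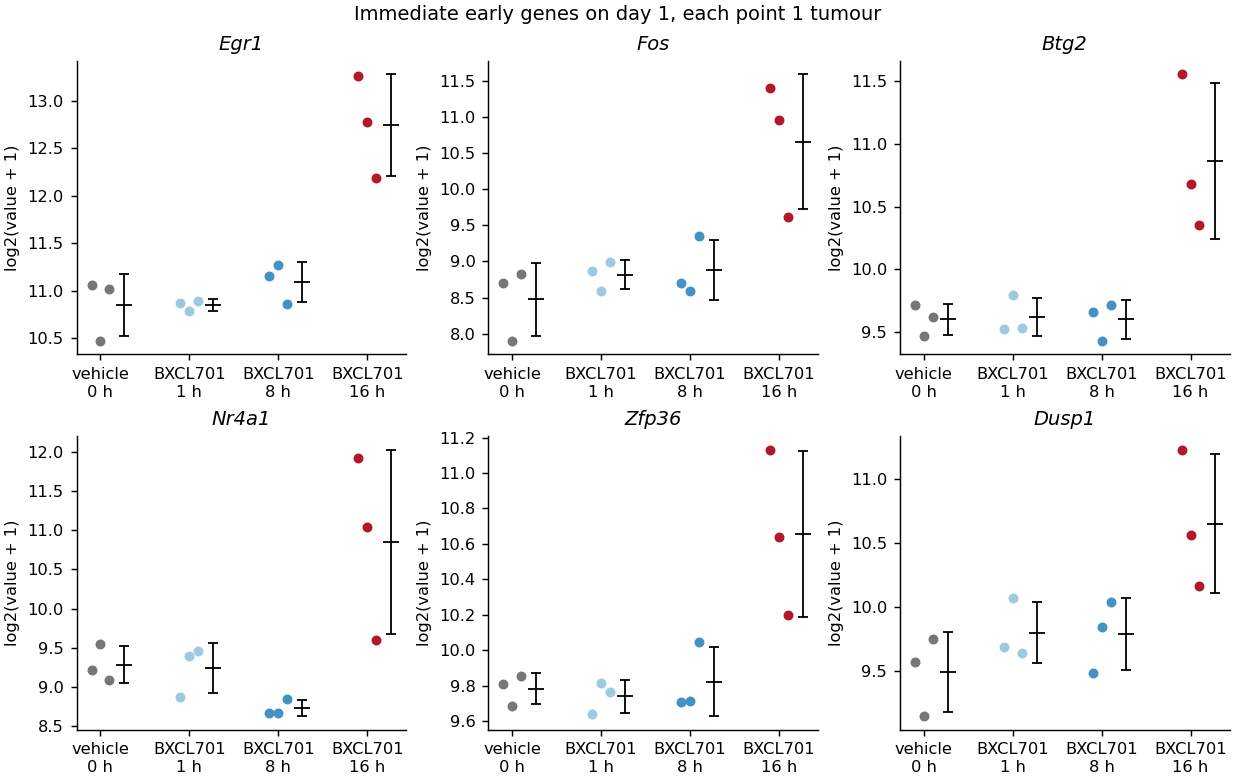
Log2(value + 1) level of 6 immediate early genes in the day 1 tumours at 0 h (vehicle, grey) and at 1, 8 and 16 h after BXCL701 (blue to red). Each point is 1 tumour and the bar beside it is the mean ± SD of 3; for Egr1 the 16 h tumours sit between 12.19 and 13.26, above all 9 earlier tumours, which sit between 10.47 and 11.27.

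TGACG is the core of the cyclic AMP response element, and CGTCA is the same letters on the other strand. The sequences before the starts of 3 of these genes are shown with both in capitals. They are the 200 bases before the start in RefSeq on GRCm38.p6, at chr12:85473690-85473889 on the plus strand for Fos, chr1:134079156-134079355 on the minus strand for Btg2 and chr15:101266646-101266845 on the plus strand for Nr4a1, each written 5′ to 3′ along the gene.
Fos: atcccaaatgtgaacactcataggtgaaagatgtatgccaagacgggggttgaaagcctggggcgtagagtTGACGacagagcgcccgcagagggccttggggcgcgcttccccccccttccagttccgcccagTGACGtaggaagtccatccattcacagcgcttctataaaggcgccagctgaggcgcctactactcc
Btg2: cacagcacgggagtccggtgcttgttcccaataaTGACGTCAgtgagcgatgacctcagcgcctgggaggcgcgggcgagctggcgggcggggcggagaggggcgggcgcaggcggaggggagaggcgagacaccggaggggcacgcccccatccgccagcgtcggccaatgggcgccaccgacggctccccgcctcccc
Nr4a1: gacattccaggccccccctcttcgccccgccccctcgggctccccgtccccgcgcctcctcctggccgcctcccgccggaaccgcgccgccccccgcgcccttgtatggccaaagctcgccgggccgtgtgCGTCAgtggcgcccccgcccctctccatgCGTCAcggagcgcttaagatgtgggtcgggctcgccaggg
In Btg2 the match is the whole palindrome TGACGTCA, present in 1.55% of the 32851 RefSeq windows of 250 bases searched. Among 12 list members with a window that could be read, 8 held TGACG on either strand in the 250 bases before a start (66.7%), and 19.8% of the 27025 genes with a window did. TGACG lies inside TGACGTCA, so the motifs overlap. Only windows holding the marked letters are shown, and a match describes letters only. Zfp36, described above, held no TGACG in its window, and neither did Jun of the same list. The list was not chosen independently of these tumours.

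After the 2 genes that passed, the 13 named genes with the smallest p-values among those with higher means had adjusted p from 0.082 to 0.956. They included Lif, a cytokine of the interleukin-6 family, at 8.30, 7.74 and 8.39 in vehicle and 9.13, 9.09 and 8.997 at 16 h (0.93 ± 0.23, adjusted p = 0.765). Lrp1, a large endocytic receptor, stood at 14.52, 13.75 and 14.08 in vehicle and within 14.86 to 14.90 at 16 h (0.76 ± 0.18, adjusted p = 0.564). Sirt4, a mitochondrial sirtuin, was 6.21, 6.01 and 6.65 in vehicle and 7.45, 7.14 and 7.40 at 16 h (1.04 ± 0.24, adjusted p = 0.553). The groups did not overlap for any of the 3. The immunoglobulin segment Ighv8-12, which shares sequence with its family and is therefore uncertain, was between 0.01 and 0.92 in vehicle and between 3.66 and 4.51 at 16 h (3.39 ± 0.81, adjusted p = 0.564). Nuak2, Olfr613, Mtss1l and Mrgpra2b completed the group, with differences of 0.72, 1.31, 0.59 and 2.69. The 15 named genes with the smallest p-values among those with lower means all had an adjusted p of 0.956. Mgarp, a mitochondrial protein induced in low oxygen, was 6.37, 6.32 and 7.13 in vehicle and 4.11, 3.95 and 6.09 at 16 h (-1.89 ± 0.52). Fam162a, another hypoxia-induced mitochondrial gene, was 10.11, 11.18 and 10.51 in vehicle and 9.46, 9.69 and 9.82 at 16 h (-0.95 ± 0.31). Klk4, a kallikrein protease, was listed at 0 in all 3 tumours at 16 h and at 0.63, 3.80 and 2.85 in vehicle. Tmem254a, one of several near-identical copies and so uncertain, gave -4.21 ± 1.42. The cell division genes Cdca5 and Cenph and the glycolytic enzyme Pgk1 gave -0.69, -0.59 and -0.64, and Syce2, Runx2os1, Hist1h3b, Rgs9, Cklf, Leprotl1, Rnaseh2b and Slamf1 lay between -1.97 and -0.28.

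Transcripts of neutrophils and of the factors that recruit them had higher means at 16 h, but no gene of these lists passed the test. Of 14 neutrophil genes 13 had higher means, 5 with an unadjusted p under 0.05 (3.2% of all genes were higher by that rule) and 5 without overlap between the groups (6.31% of all genes), and the median difference was 0.89, or 0.50 without 16 h replicate 1. S100a9, an abundant neutrophil alarmin, was 8.62, 9.83 and 8.85 in vehicle and 11.0025, 10.28 and 9.87 at 16 h (1.28 ± 0.36, adjusted p = 0.956). Its partner S100a8 was 7.88, 9.30 and 8.24 in vehicle and 10.30, 9.58 and 9.10 at 16 h (1.19 ± 0.36, adjusted p = 0.956). For S100a9 the lowest 16 h tumour was just above vehicle replicate 2, and for S100a8 it was below it. Without vehicle replicate 2, 16 h replicate 1 or 16 h replicate 3 the count at an unadjusted p under 0.05 was 5, 3 or 5. Csf3r gave 0.71 ± 0.26, Lcn2 (lipocalin 2) gave 1.84 ± 0.67, and Mmp8 (neutrophil collagenase) gave 0.94 ± 0.53. In bulk tumours more cells of a type and more RNA per cell cannot be told apart.

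Of 13 tested genes for neutrophil-recruiting chemokines, IL6 and colony-stimulating factors, 12 had higher means, 6 with an unadjusted p under 0.05 and 6 without overlap (3.2% and 6.31% of all genes), with a median difference of 0.83. Il1b is counted in this list as well as in the inflammasome list below. Without vehicle replicate 2 or 16 h replicate 1 the count at that p was 4; Csf2 was below the filter. Cxcl1 was 5.47, 4.63 and 5.56 in vehicle and 6.52, 7.73 and 6.68 at 16 h (1.76 ± 0.73, adjusted p = 0.956). Cxcl2 was 7.61, 7.33 and 7.73 in vehicle and 8.67, 8.75 and 8.29 at 16 h (1.01 ± 0.38, adjusted p = 0.956). Il6 was 5.11, 3.66 and 4.73 in vehicle and 6.27, 6.17 and 5.24 at 16 h (1.39 ± 0.56, adjusted p = 0.956). Osm, oncostatin M, was 5.01, 5.49 and 5.24 in vehicle and 6.75, 6.27 and 6.24 at 16 h (1.17 ± 0.34, adjusted p = 0.956). In these 4 genes no 16 h tumour fell within the vehicle range. Csf3, the gene of granulocyte colony-stimulating factor, did not share this pattern: it was 0.64, 1.59 and 1.97 in vehicle and 0.69, 1.28 and 3.03 at 16 h (0.27 ± 0.95, adjusted p = 0.971). The medians of the immediate early, neutrophil and recruiting lists stayed above 0 under all 17 alternatives, between 0.69 and 1.25, between 0.50 and 1.31, and between 0.64 and 0.97.

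Mast cell genes and mitochondrially encoded transcripts had higher means as well. Of 9 mast cell and eosinophil genes 8 had higher means, 2 with an unadjusted p under 0.05 and 4 without overlap (3.2% and 6.31% of all genes were higher by these rules), with a median of 0.73. Without vehicle replicate 2 or 16 h replicate 1 the count at that p was 1 or 0; the eosinophil granule genes Epx and Prg2 were below the filter. Tpsab1, a mast cell tryptase, was 7.11, 8.04 and 7.66 in vehicle and 9.44, 8.41 and 8.28 at 16 h (1.11 ± 0.45, adjusted p = 0.956). Fcer1a, the IgE-binding chain of the high-affinity receptor, gave 1.22 ± 0.56, and Kit gave 0.97 ± 0.54. Of 13 transcripts of the mitochondrial genome 12 had higher means, 5 with an unadjusted p under 0.05 (3.2% of all genes), and the median was 0.49. The subunit of complex I mt-Nd4 was 15.13, 14.50 and 15.16 in vehicle and 15.74, 15.71 and 15.60 at 16 h (0.75 ± 0.23, adjusted p = 0.956). Without vehicle replicate 2, the lowest tumour for mt-Nd4, the median of this list was 0.33 and the count 2. In stromal genes the direction was mixed: Fn1 (fibronectin), Pdgfra and Pdgfrb gave 0.65, 0.97 and 0.40, while Thy1 gave -0.72 and 9 of 14 fibroblast and pericyte genes had lower means. Macrophage genes were split 6 against 6, with Mertk, an efferocytosis receptor, at 0.74 ± 0.36 and Cd163 at 1.21 ± 0.83. Zbtb46, a transcription factor of conventional dendritic cells, gave 0.49 ± 0.22.

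**Figure D3:**
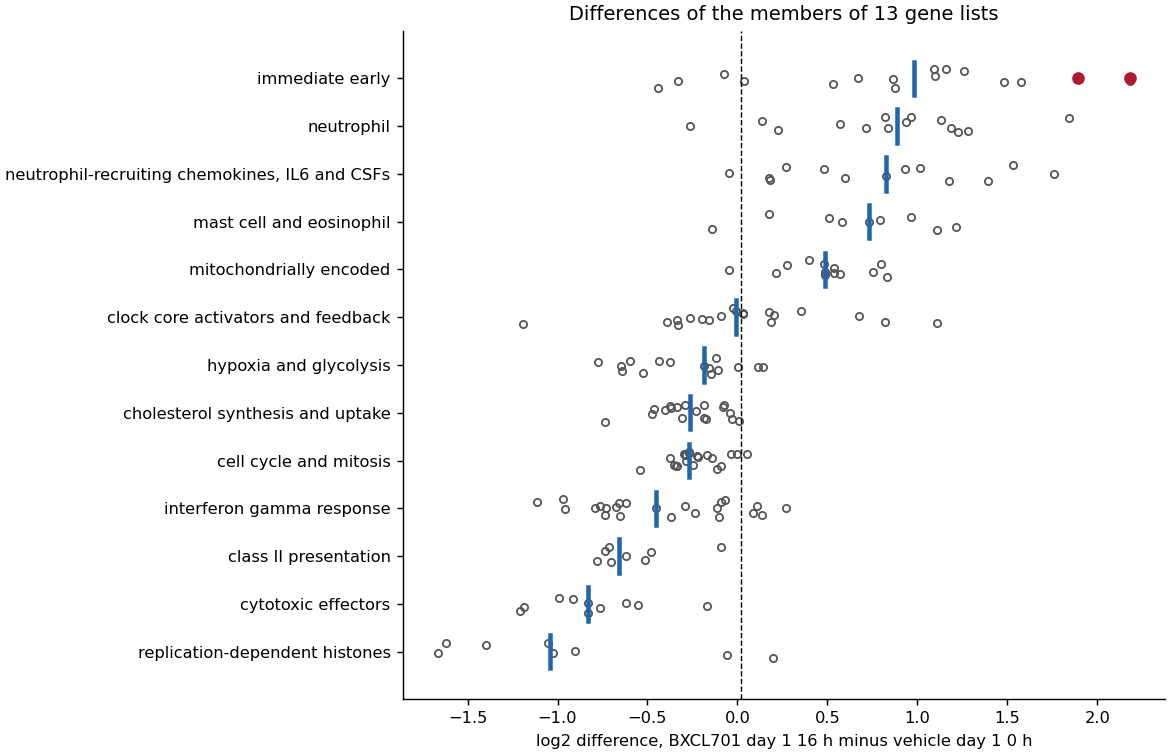
Log2 difference, 16 h after BXCL701 minus vehicle, for each tested member of 13 gene lists (open circles, spread vertically for visibility), with the list median as a blue bar, genes past an adjusted p of 0.05 in red and the median of all genes as a dashed line. Egr1 and Fos are the red points; the immediate early median is 0.98 and the histone median -1.04.

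Interferon and cytotoxic lymphocyte genes had lower means at 16 h, and most of the difference in the interferon list lay in 1 tumour. All 10 cytotoxic effector genes had lower means, with a median of -0.83 and 1 gene without overlap, where 3.43% of all genes were lower without overlap; 1 gene of 10 does not set the list apart from that share. That gene, Gzmm (granzyme M), was 3.52, 4.61 and 3.72 in vehicle and 3.26, 2.61 and 2.43 at 16 h (-1.19 ± 0.46, adjusted p = 0.956). Ifng, the gene of interferon gamma, was 4.75, 5.30 and 3.68 in vehicle and 4.67, 4.12 and 1.32 at 16 h (-1.21 ± 0.70, adjusted p = 0.956). Of 23 tested rows of the interferon gamma response list (Gbp6 has 2) 19 had lower means, none with an unadjusted p under 0.05, and the median was -0.45. The guanylate-binding protein gene Gbp2 was 13.30, 13.46 and 12.55 in vehicle and 13.01, 12.91 and 10.48 at 16 h. Cxcl9, a T cell chemokine induced by interferon gamma, was 12.20, 12.45 and 11.24 in vehicle and 12.26, 12.09 and 9.33 at 16 h (-0.74 ± 0.61, adjusted p = 0.956). Cxcl10 was 9.62, 9.83 and 9.30 in vehicle and 9.90, 9.86 and 7.58 at 16 h (-0.47 ± 0.48). In Ifng, Gbp2, Cxcl9 and Cxcl10 the 16 h replicate 3 was far below the other 5 tumours, and replicates 1 and 2 lay near or within the vehicle range. Gzmm was low in 16 h replicate 2 as well (2.61, beside 2.43 in replicate 3). Without replicate 3, 20 of the 23 rows had higher means and the median of the interferon gamma list was 0.21, that of the CXCR3 axis 0.26 (from -0.60) and that of the cytotoxic list -0.32; without 16 h replicate 1 or vehicle replicate 2 the cytotoxic median was -1.26 or -0.52. Class II presentation genes moved from -0.66 to -0.15 without it, with H2-Ab1 at 14.61, 15.53 and 13.85 in vehicle and 14.92, 13.76 and 12.97 at 16 h. Cd8a was 7.88, 8.70 and 7.14 in vehicle and 8.86, 7.11 and 5.88 at 16 h, and Ncr1, an NK cell receptor, gave -0.35 ± 0.74. Vehicle replicates 1 and 3, which held hair follicle keratins at a similar level, had mean levels of the interferon gamma list of 10.54 and 9.62, beside 8.17 in 16 h replicate 3. Without 16 h replicate 1, a fit that leaves 16 h replicates 2 and 3, all 23 rows had lower means. Of these rows 6 had an unadjusted p under 0.05, where 372 of all 16613 genes did in either direction in that fit.

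Genes of proliferation, cholesterol synthesis and glycolysis had slightly lower means. Of 21 cell cycle genes 20 had lower means with a median of -0.27 (-0.16 without 16 h replicate 1), and Cenpa (the centromeric histone) gave -0.38 ± 0.17. Of 18 cholesterol genes 17 had lower means and 7 did not overlap, against 3.43% of all genes, but 1 had an unadjusted p under 0.05 (0.807% of all genes were lower by that rule). The median was -0.26, and without vehicle replicate 2 it was -0.17, with 14 genes lower and none at that p. Fdps, farnesyl diphosphate synthase, was 11.13, 12.34 and 11.28 in vehicle and 10.64, 10.94 and 10.97 at 16 h (-0.74 ± 0.32, adjusted p = 0.956). Of 15 hypoxia and glycolysis genes 12 had lower means with a median of -0.19, which was -0.44 without vehicle replicate 1 and -0.32 without 16 h replicate 3, and Pgk1 was 13.70, 14.26 and 14.06 in vehicle and 13.20, 13.26 and 13.63 at 16 h. Of 8 tested replication-dependent histone genes, a multigene family whose reads may be split between copies, 7 had lower means, and the median of -1.04 was -0.65 without vehicle replicate 2. The genes of the drug's targets did not pass. Dpp4 was 6.79, 6.43 and 6.39 in vehicle and 6.90, 7.17 and 6.46 at 16 h (0.31 ± 0.47, adjusted p = 0.959). Dpp8 gave 0.15 ± 0.31, Dpp9 gave 0.22 ± 0.15 and Fap gave -0.16 ± 0.74, all with overlapping groups. Of 12 inflammasome and pyroptosis genes 8 had higher means, with Nlrp3 at 0.72 ± 0.31 and Il1b at 0.83 ± 0.39 (adjusted p = 0.956 for both). Heat shock and unfolded protein response genes had medians of -0.05 and -0.01, and the sign of both differed among the alternatives.

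Compared with the tumours taken 1 h after the same first dose, a comparison that holds no vehicle sample, Egr1 was again the gene that passed (0.00602% of genes). It stood between 10.78 and 10.89 at 1 h and rose by 1.89 ± 0.30 by 16 h (adjusted p = 0.00883). The same 3 tumours at 16 h enter this comparison and the one against vehicle, so the results are not independent. Fos was 8.87, 8.59 and 8.997 at 1 h (1.84 ± 0.38, adjusted p = 0.184), and Btg2 was 9.53, 9.79 and 9.53 (1.24 ± 0.25, adjusted p = 0.152). Of the immediate early list 10 of 16 genes were higher at an unadjusted p under 0.05, where 3.53% of all genes were higher and 1.2% lower. Of the neutrophil list 8 of 14 were higher by that rule, with Lcn2 at 2.61 ± 0.67. Of the interferon gamma list all 23 rows had lower means, 9 of them with an unadjusted p under 0.05; without 16 h replicate 3, 18 had lower means and none passed that rule. The genes with the smallest p among lower means were Per1 (-1.01 ± 0.30), Klrb1b, Fcgr4, Tceanc2 and Gpr171, with adjusted p from 0.617 to 0.693. Without 16 h replicate 1, without 1 h replicate 1 or 2, or with the 6 tumours fitted alone, no gene passed.

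Compared with the tumours taken at 8 h, 29 genes passed: 18 were higher at 16 h (0.108% of genes) and 11 lower (0.0662%). The higher genes included 5 of the 16 immediate early genes. Egr1 was 11.16, 11.27 and 10.86 at 8 h and rose by 1.65 ± 0.30 (adjusted p = 0.0127), and Fos was 8.70, 8.60 and 9.36 and rose by 1.77 ± 0.38 (adjusted p = 0.0386). Btg2, Ier2 and Nr4a1 rose by 1.26, 1.38 and 2.12. The neutrophil genes S100a9 and S100a8 rose too. S100a9 was 8.96, 8.20 and 8.02 at 8 h (1.99 ± 0.36, adjusted p = 0.0127), and S100a8 was 8.07, 7.92 and 7.28 (1.90 ± 0.36, adjusted p = 0.0127). All 3 tumours at 16 h were above all 3 at 8 h for both. Alox5, the 5-lipoxygenase of leukotriene synthesis, was 7.24, 7.11 and 6.94 at 8 h and 9.39, 8.88 and 8.17 at 16 h, and rose by 1.71 ± 0.31 (adjusted p = 0.0127). Pinx1, a telomerase inhibitor, was 7.68, 7.73 and 7.86 at 8 h and 8.82, 8.89 and 8.80 at 16 h, and rose by 1.08 ± 0.17 (adjusted p = 0.00338). The other higher genes were Hexdc, Osgin1, Ighv8-12, Gm26902, Mid1ip1, Adam4, Nuak2, Lzts3 and Gm5678, with differences from 0.67 to 3.99.

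The 11 genes that fell between 8 h and 16 h included genes of the clock, of glucocorticoid signalling and of the response to low oxygen. Dbp, a clock output transcription factor, was 9.85, 9.79 and 10.28 at 8 h and 7.161, 6.97 and 7.03 at 16 h, and fell by 2.92 on the log2 scale (standard error 0.47, adjusted p = 0.00338). Nr1d1 (REV-ERB alpha), a clock repressor, was 10.85, 10.70 and 11.18 at 8 h and 9.37, 9.02 and 9.08 at 16 h (-1.76 ± 0.31, adjusted p = 0.0111). Per1 was 10.77, 11.53 and 11.74 at 8 h and 10.09, 9.71 and 9.63 at 16 h (-1.54 ± 0.30, adjusted p = 0.0167). The 8 h and 16 h tumours did not overlap for any of these. The glucocorticoid-induced genes Tsc22d3 (GILZ) and Fkbp5, a cochaperone of the receptor, fell by 1.35 and 1.15. Bnip3, a mitophagy receptor induced in hypoxia, was 11.46, 11.66 and 11.88 at 8 h and 9.29, 9.30 and 10.11 at 16 h (-2.10 ± 0.32, adjusted p = 0.00338). Mgarp fell by 2.80 (adjusted p = 0.0127), and Pdk1 (pyruvate dehydrogenase kinase), Mxi1 and the oxygen sensor Egln1 fell by 1.22, 1.13 and 0.85. Fbxo32, a muscle-atrophy ubiquitin ligase, fell by 1.31. For Bnip3 the vehicle tumours stood at 10.05, 9.91 and 11.06, between the 8 h and 16 h levels or overlapping the latter.

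By list, 10 of 19 clock genes were lower and 1 higher at 16 h than at 8 h with an unadjusted p under 0.05, where 3.98% of all genes were lower and 7.4% higher. By the same rule 7 of 15 hypoxia and glycolysis genes were lower and none higher, and 9 of 16 immediate early, 7 of 14 neutrophil, 7 of 13 recruiting factor and 5 of 9 mast cell genes were higher. Csf3 was 3.93, 3.92 and 4.28 at 8 h, above all vehicle and 16 h tumours, and gave -2.37 ± 0.95 (adjusted p = 0.352). Keratinocyte and skeletal muscle genes had medians of -2.83 and -2.84 in this comparison, and with hair follicle keratins as a covariate 21 genes passed, all among the 29. With mean levels of skin, muscle and fat genes as covariates 17 of the 29 passed, Egr1, S100a8, S100a9, Dbp, Per1 and Bnip3 among them, while Fos and Nr4a1 (adjusted p = 0.11 for both) and Btg2 (adjusted p = 0.056) did not. With the 6 tumours fitted alone 20 genes passed, and 5 of these were among the 29: Dbp, Nr1d1, Bnip3, Pinx1 and Mid1ip1. Egr1, S100a8, S100a9 and Per1 then had an adjusted p of 0.0605, Btg2 of 0.0778, Nr4a1 of 0.0907 and Fos of 0.0943. Leaving out 1 tumour at a time left between 3 and 24 of the 29 genes past the threshold. Dbp, Bnip3 and Pinx1 passed in each of the 6 such fits, Egr1 in 3, S100a8 and S100a9 in 2, and Fos and Per1 in 1. Only 4 genes passed without 16 h replicate 1, as without 16 h replicate 2, and 5 passed without 8 h replicate 3.

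An E-box (CACGTG) or the core of the hypoxia response element (ACGTG, contained in that E-box) is marked in capitals. Windows are shown for Per1 and Bnip3 among the genes that fell, and only windows holding the marked letters are shown. They are the 200 bases before the RefSeq start on GRCm38.p6 at chr11:69098749-69098948 (plus strand, the upstream of 2 listed starts) and chr7:138909507-138909706 (minus strand).
Per1: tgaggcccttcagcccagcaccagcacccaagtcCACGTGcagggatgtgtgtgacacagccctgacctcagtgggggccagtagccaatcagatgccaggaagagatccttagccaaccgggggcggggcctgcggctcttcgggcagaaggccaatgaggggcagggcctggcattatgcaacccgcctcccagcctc
Bnip3: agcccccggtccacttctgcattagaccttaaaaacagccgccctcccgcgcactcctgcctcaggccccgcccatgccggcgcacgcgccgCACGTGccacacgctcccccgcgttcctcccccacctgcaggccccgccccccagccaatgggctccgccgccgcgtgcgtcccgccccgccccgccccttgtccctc
CACGTG was found within 250 bases before a start in 5 of the 16 clock genes with a window (31.2%, beside 6.86% of all genes), and ACGTG in 11 of 14 hypoxia and glycolysis genes (78.6%, beside 18.5%). Dbp and Nr1d1 held no CACGTG in this window, and neither did the window of the other listed Per1 start. These counts describe the lists as chosen, whatever their members did in the tumours.

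**Figure D4:**
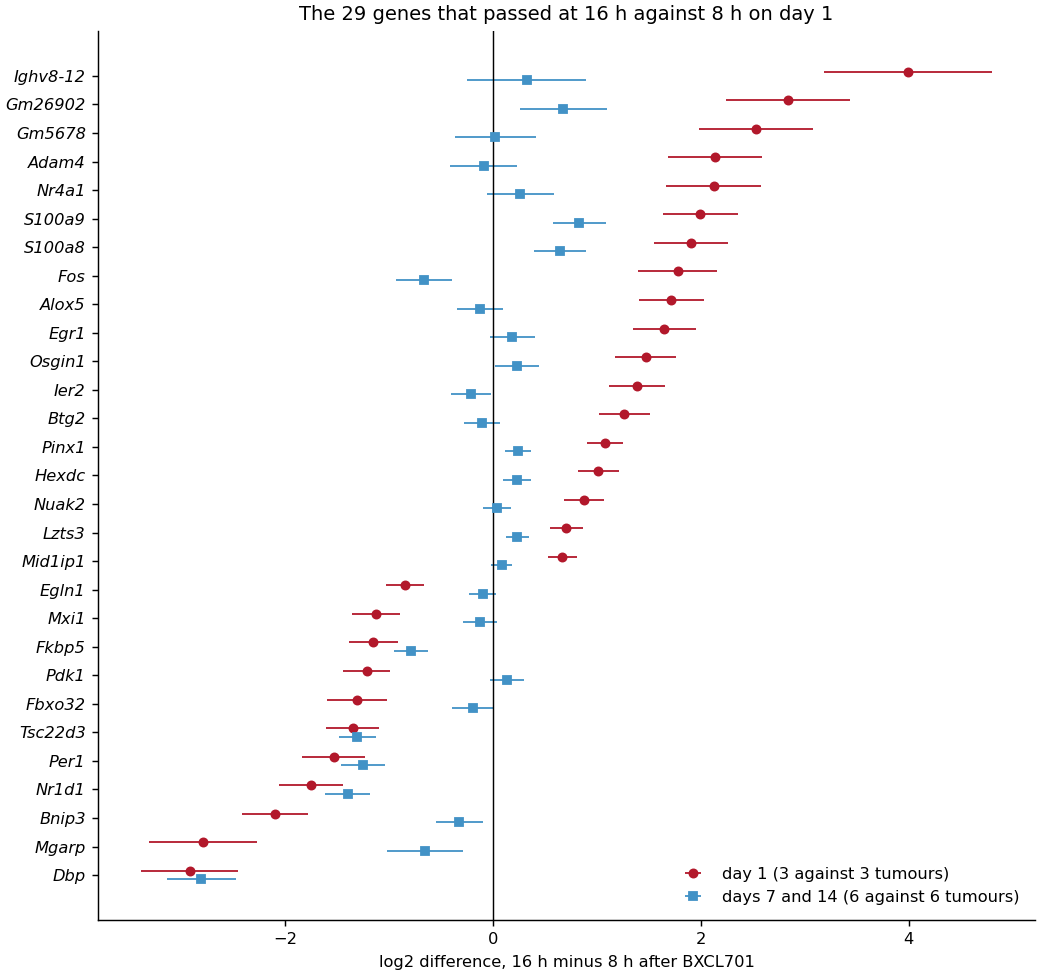
Log2 difference, 16 h minus 8 h after BXCL701, for the 29 genes that passed on day 1: red circles are day 1 and blue squares are the same hours in other tumours on days 7 and 14, with standard errors. Dbp is near -2.9 in both sets, whereas Bnip3 is -2.10 on day 1 and -0.33 on days 7 and 14.

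The same hours were compared in tumours of days 7 and 14, which share no sample with day 1. There 17 genes passed between 8 h and 16 h, 3 higher (0.0181% of genes) and 14 lower (0.0843%), or 2 with the compared groups fitted alone. Of the 29 genes of day 1, 23 had the same sign there (37.1% of all genes did), and 5 passed there as well. Across all genes the differences of day 1 and of the later days had a Pearson r of -0.228. Keratinocyte genes had a median of 2.19 there, opposite in sign to day 1. Dbp fell by 2.81 (standard error 0.33, adjusted p = 1.12e-05) on the later days. Nr1d1 gave -1.40 ± 0.22 (adjusted p = 0.000938) and Per1 gave -1.25 ± 0.21 (adjusted p = 0.00387). Tsc22d3 and Fkbp5 fell as well, by 1.31 and 0.79. Arntl, the positive arm of the clock, moved the other way: it rose by 1.43 ± 0.16 (adjusted p = 1.12e-05) on days 7 and 14, and on day 1 it was 8.28, 8.47 and 8.37 at 8 h and 8.99, 9.25 and 9.45 at 16 h (0.85 ± 0.23, adjusted p = 0.159). Egr1 and S100a9 did not pass on the later days, with 0.19 ± 0.21 and 0.83 ± 0.26 (adjusted p = 0.434 for S100a9), and Bnip3 gave -0.33 ± 0.23. Fos gave -0.67 ± 0.27 there, the opposite sign to day 1. Of the 16 immediate early genes 5 had higher means there and 11 lower, with a median of -0.16. At an unadjusted p under 0.05, 1 was higher and 4 were lower. By that rule 3.36% of all genes were higher and 4.01% lower.

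Against vehicle, the 19 clock genes at 16 h had a median of -0.01, with 3 higher and 1 lower at an unadjusted p under 0.05, where 3.2% of all genes were higher and 0.807% lower. Without vehicle replicate 2 none passed that rule. Per2 was 8.37, 7.45 and 7.92 in vehicle and 9.17, 9.20 and 8.69 at 16 h (1.11 ± 0.42, adjusted p = 0.956). Cry1 was 7.59, 6.05 and 7.33 in vehicle and 7.68, 7.82 and 7.95 at 16 h (0.82 ± 0.36, adjusted p = 0.956). Dbp was 7.59, 8.70 and 8.45 in vehicle and lower in all 3 tumours at 16 h (-1.19 ± 0.47, adjusted p = 0.956). Bhlhe40, a repressor of the E-box, gave 0.67 ± 0.31. The 19 genes spanned -1.19 to 1.11, and their mean level was 8.12, 8.08 and 8.16 at 16 h, a narrower range than the 7.76 to 8.35 of vehicle.

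**Figure D5:**
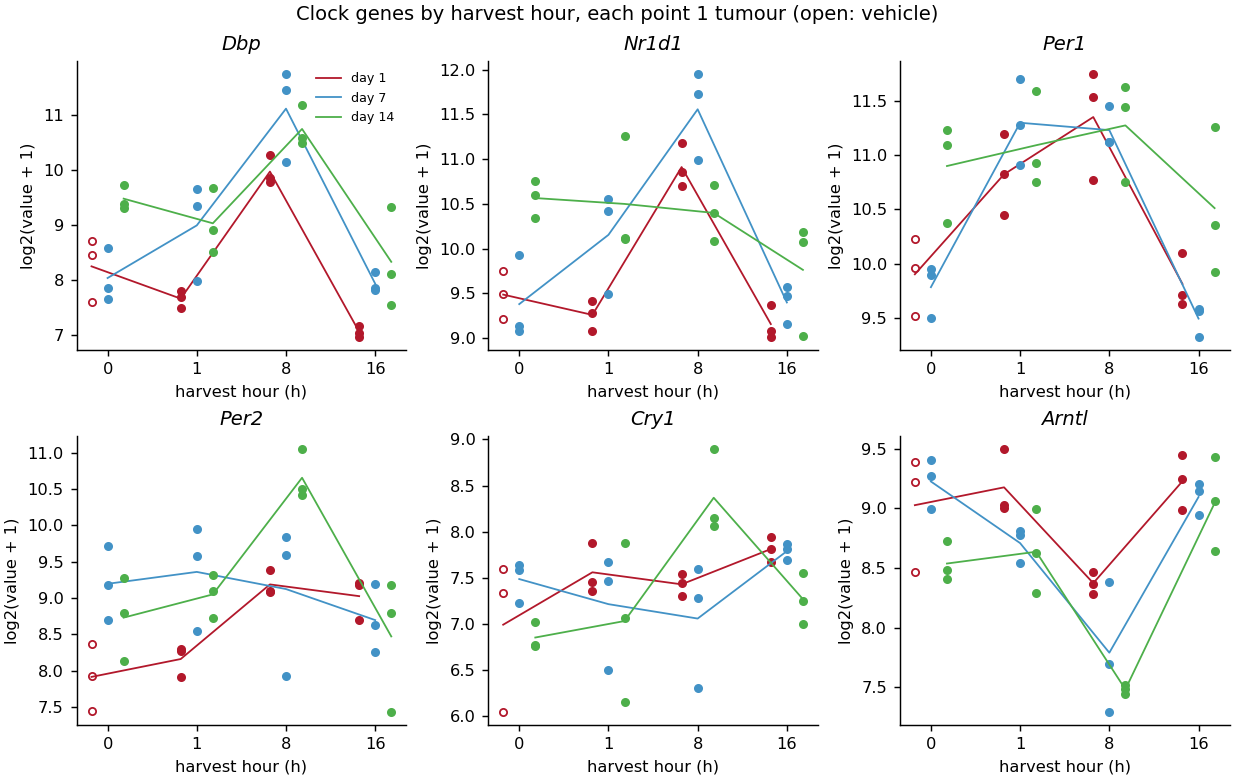
Log2(value + 1) level of 6 clock genes by harvest hour (0, 1, 8 and 16 h, spaced evenly and not to scale) on day 1 (red), day 7 (blue) and day 14 (green). Each point is 1 tumour, lines join group means, and the open points are the day 1 vehicle tumours; Dbp is highest at 8 h on all 3 days and Arntl is lowest there.

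Treated tumours of days 7 and 14 allowed 16 h to be set against 0 h within the drug arm, on samples that do not enter the day 1 comparison. Across all 16613 genes these differences and those of 16 h against vehicle on day 1 had a Pearson r of 0.00392. Fos was the gene that passed (0.00602% of genes). On day 7 it was 8.48, 8.31 and 8.59 at 0 h and 10.22, 10.07 and 10.24 at 16 h. On day 14 it was 8.48, 8.79 and 8.44 at 0 h and 10.28, 9.98 and 10.37 at 16 h. Every 16 h tumour was above every 0 h tumour, and Fos rose by 1.68 ± 0.27 (6 against 6 tumours, adjusted p = 0.0103). The call was lost without day 7 0 h replicate 2, day 14 0 h replicate 1 or day 14 16 h replicate 3, and with the log2 FPKM table. Egr1 gave 0.98 ± 0.21 (adjusted p = 0.375), Btg2 0.77 ± 0.17 (adjusted p = 0.375), Dusp1 0.96 ± 0.22 (adjusted p = 0.432) and Nr4a1 1.28 ± 0.32 (adjusted p = 0.783). All 16 immediate early genes had higher means, 10 with an unadjusted p under 0.05, where 1.23% of all genes were higher and 1.05% lower. The median of the list was 0.70. Neutrophil genes did not share this: 12 of 14 had lower means, with a median of -0.35.

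The difference between these contrasts, the first-dose 16 h difference minus that of days 7 and 14, was tested directly. No gene passed (0% in either direction, smallest adjusted p 0.341, limma), and 888 genes had an unadjusted p under 0.05, 3.61% of genes higher and 1.73% lower. For Egr1 the difference was 0.91 ± 0.37 (adjusted p = 0.891) and for Fos 0.50 ± 0.47 (adjusted p = 0.992). All 14 neutrophil genes lay above 0, 6 with an unadjusted p under 0.05, and the median was 1.27; without 16 h replicate 1 the count was 2, and without vehicle replicate 2 it was 7. S100a9 gave 1.33 ± 0.44 (adjusted p = 0.791) and Csf3r 1.08 ± 0.31 (adjusted p = 0.683). Of 21 cell cycle genes 20 lay below 0 and 6 of them had an unadjusted p under 0.05, or 1 without vehicle replicate 2.

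Against the 16 h tumours of day 7, each set against the vehicle of its own day, 1 gene differed: Lrp1 (chr10:127538161-127621148 on GRCm38, 0.00602% of genes). On day 7 it was 14.45, 14.95 and 14.795 in vehicle and 14.09, 14.11 and 13.87 at 16 h, the opposite direction to day 1. The difference was 1.47 ± 0.25 (adjusted p = 0.035). It passed in 3 of the 12 fits that left out 1 tumour, those without day 1 vehicle replicate 1, day 7 vehicle replicate 1 or day 7 16 h replicate 1. The call was also lost with median-of-ratios factors, with the log2 FPKM table, with the compared libraries fitted alone, without the trend and robust options, and with the tissue, transcript-length or keratin covariates. Of 23 interferon gamma rows 14 were lower on day 1 than on day 7 with an unadjusted p under 0.05 (4.03% of all genes were lower by that rule), and 3 without day 1 16 h replicate 3. Against day 14 no gene passed (0% in either direction, smallest adjusted p 0.284, limma, with 526 genes at an unadjusted p under 0.05), and 20 of the 23 interferon gamma rows were lower on day 1 by that rule, where 2.12% of all genes were, with a median of -2.71; without day 1 16 h replicate 3 it was 15 rows, with a median of -1.76. Gbp2 gave -3.13 ± 0.68 (adjusted p = 0.284) and Cxcl9 gave -3.31 ± 0.86 (adjusted p = 0.46). Neutrophil genes had medians of -0.21 against day 7 (8 of 14 lower) and -0.51 against day 14 (12 of 14 lower), with none at an unadjusted p under 0.05.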

How the data were processed

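RNA from 42 bulk tumours, in 14 groups of 3 mice, was sequenced, and 6 tumours make up the main comparison. The submitters' processing notes name Trimmomatic (0.36), Bowtie (0.12.9) and the GRCm38 build. How genes were quantified and scaled is not given in these sources. The authors deposited a gene table of signal values that are not whole numbers, treated here as estimated reads that had been scaled. Read depth is therefore unknown and no count model was used. The authors also deposited log2 FPKM values, which served as an alternative on the log2(FPKM + 1) scale. A duplicate of those values (largest difference 0) was not used. All columns belonged to listed samples (0 did not).

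A gene entered the fit if 3 or more libraries reached a value of 10, which kept 16613 of 47729 genes. Values were analysed as log2(value + 1), a scale that understates changes of low genes. One limma model (limma 3.58.1, R 4.3.3, trend and robust options) held a mean for each of the 14 groups, leaving 28 residual degrees of freedom. P-values were adjusted by the Benjamini-Hochberg method across the 16613 genes, separately for 8 comparisons, and called at 0.05. The code was tested on simulated data. Genes were placed with GENCODE M21 (GRCm38), which holds 47224 of the identifiers. Promoter windows are RefSeq's on GRCm38.p6, with those of chromosome 18 left out.

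The text names the 15 smallest p-values in each direction of the main comparison (predicted models left out) and 12 fixed genes. Further genes were taken from up to 4 members of each of 38 gene lists and from the clock genes. The 5 smallest p-values in each direction of other comparisons were also drawn on. Not every gene from these further sources is named. Other genes that passed between 8 h and 16 h were named after their values were seen. The members and lists were chosen with earlier results of these data known. The 8 h against 16 h comparison on days 7 and 14, the hair follicle keratin covariate and the removal of single libraries outside the main comparison were chosen after seeing the data. The alternatives tried were pseudocounts of 5 and 0.5, no filter, a filter of 50, median-of-ratios factors, the FPKM values, the compared libraries alone, no trend or robust option, covariates for neighbouring tissue or transcript length, and leaving out each library.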

Additional observations from a re-analysis of the deposited data

Results flagged for a closer look

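Lrp1 differed between days under the same contrast. Its 16 h difference from vehicle on day 1 exceeded that on day 7 by 1.47 ± 0.25 on the log2 scale (limma adjusted p = 0.035). All 3 tumours at 16 h were above the 3 vehicle tumours on day 1 and below them on day 7. The call rests on the settings used: it was lost in 9 of the 12 fits that left out 1 tumour and with median-of-ratios factors, the log2 FPKM table, the compared libraries alone, no trend or robust option, and the tissue, transcript-length and keratin covariates. Groups of 3 tumours are too small for a test of single outlying tumours.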

How the results depend on the processing

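No paired analysis was possible because replicate numbers follow the order of the samples and each tumour came from a different animal. Counts of genes past the threshold are given. At 16 h against vehicle (2 genes), 7 passed with no filter, 0 with the compared libraries alone and 1 with neighbouring tissue covariates. With the transcript-length covariate 5 passed (Egr1, Ier2, Fos, Junb and Btg2), and 0 to 3 did when 1 library was left out. Of the 7 with no filter 6 were higher, Egr1 and Fos among them, and 1 was lower. The lower gene was Fgf3 (-0.99, limma adjusted p = 4.58e-06), which was not called with the filter. Against 1 h (1 gene) the counts were 10, 0 and 2 with no filter, the compared libraries alone and the length covariate, and 0 to 3 with 1 library left out. Against 8 h on day 1 (29 genes) they were 54 with the FPKM values (25 of the 29 among them), 96 with the length covariate (all 29), 20 with the compared libraries alone (5 of the 29; 7 higher and 13 lower), 21 with tissue covariates (17 of the 29; 8 higher and 13 lower) and 4 to 29 with 1 library left out. On days 7 and 14, 16 h against 0 h (1 gene) gave 2 with no filter, 0 with the FPKM values and 0 to 2 with 1 library left out, and 16 h against 8 h (17 genes) gave 2 with the compared libraries alone, 39 with the length covariate and 9 to 21 with 1 library left out. The difference between the first-dose contrast and that of days 7 and 14 (0 genes) gave 3 with no filter and 0 to 1 with 1 library left out. The difference from day 7 (1 gene) gave 2 with a pseudocount of 5, 3 with no filter, and 0 with each of median-of-ratios factors, the compared libraries alone, no trend or robust option, tissue covariates, the length covariate and the keratin covariate; with the FPKM values 1 gene passed, which was not Lrp1, and it gave 0 to 2 with 1 library left out. The difference from day 14 (0 genes) gave 1 with no filter and 0 to 4 with 1 library left out. The cause of these shifts was not tested. Signs were checked for the genes called against vehicle and against 8 h on day 1, and none changed. Of the list medians in the main comparison, 639 of the values under alternatives moved by less than the spread between tumours and 7 by more. Sequencing depth is unknown, so its limit on low genes could not be given.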
